A study of Mus musculus with 12 samples.

Results

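Elongated spermatids of males carrying a catalytically dead form of TENT5C were compared with those of wild-type males by nanopore direct RNA sequencing, which reads native poly(A) RNA so that each read stands for 1 molecule. A contig here is 1 reference sequence to which reads were assigned, either a transcript or a repeat. The comparison takes every contig with 10 reads or more in 2 or more libraries of either group, which gave 7190 of the 12114 contigs counted in the series. Reads were also summed by gene symbol, and 4833 of 7079 symbols passed the same filter. Of the 12 libraries of the series, 6 enter this comparison: 3 of elongated spermatids (ES) from adult Tent5c wt/wt males and 3 from adult Tent5c dcat/dcat males. Both groups are C57BL/6 mice, and the dcat allele is a germline change in the animal, so every cell carries it. The cells were sorted from testis suspensions stained with Hoechst and propidium iodide, by DNA content, red fluorescence and light scatter. Each library represents RNA combined from 3 animals, so the spread between libraries is that between pools.

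TENT5C belongs to the non-canonical poly(A) polymerases, which lengthen the poly(A) tail of mRNAs outside the nucleus. Long tails generally protect an mRNA from decay and favour its translation. Transcription stops as the spermatid nucleus condenses, so the proteins of the late sperm head and tail are made from mRNAs stored earlier. The study found the overall spread of tail lengths in ES nearly the same in both genotypes, with shortening limited to certain transcripts. Loss of TENT5C activity raises the question of whether the stored mRNAs are still present at the same level. The counts bear on that question for RNA level only, since tail lengths were not part of the table analysed here. Levels are relative to the other RNAs of a library, so a change shared by all mRNAs would not be seen.

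Total counts ran from 337287 in wt/wt replicate 3 to 714163 in dcat/dcat replicate 3. Levels are given in CPM, each library's counts brought to a common total after TMM scaling, a correction for the composition of each library whose factors lay between 0.963 and 1.05. The libraries did not fall apart by genotype. Correlations of log2 levels were 0.861 to 0.947 within the groups and 0.853 to 0.957 between them. The closest of all pairs was wt/wt replicate 1 with dcat/dcat replicate 1, whose counts differed only a little beyond sampling noise (chi-square 1.23 times its degrees of freedom), against 1.79 to 7.86 in the other pairs, where the lowest was that of the replicate 2 libraries. Reads on contigs annotated as targets of nonsense-mediated decay made up 1.47% and 1.46% of the counts of the replicate 1 libraries, against 1.78% to 2.27% elsewhere. The numbers of calls, the Mnd1 result and some named contigs are therefore given without each library as well. Most list medians are given from all libraries together.

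The sorted cells carried the RNA of condensing spermatids. The 12 elongated spermatid markers summed to between 184264 and 235853 CPM in every library. A list of round spermatid-enriched genes, partly drawn from earlier results on these samples, summed to 2992 to 3266 CPM. Leydig cell markers summed to 227 to 879 CPM and Sertoli cell markers to 317 to 650 CPM. Macrophage and blood markers stood at 119 to 170 CPM, and none of 15 peritubular and endothelial markers had a contig in the table (0 measured).

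Tent5c itself was expressed in both groups, as its single contig shows. ENSMUST00000061455 lies on the minus strand of chromosome 3 from 100468057 to 100489324 (GRCm38) and has 2 exons. Its levels by gene were 683, 716 and 664 CPM in wt/wt replicates 1, 2 and 3, and 692, 788 and 917 CPM in dcat/dcat. The groups overlapped, with means of 688 ± 26.0 and 799 ± 113 CPM (SD, n = 3). The log2 difference, dcat/dcat minus wt/wt, was 0.22 with a 95% interval from -0.09 to 0.52. A catalytic mutation need not alter the level of its transcript, so these levels do not check the allele.

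No contig passed the threshold of a Benjamini-Hochberg adjusted p (q) of 0.05 in edgeR's quasi-likelihood test (0 of 7190, 0%). Before adjustment, 142 contigs had a p under 0.05 (1.97%), of which 78 were higher in dcat/dcat (1.08%) and 64 lower (0.89%). With libraries scaled by their total counts alone, the higher share of such contigs moved from 54.9% to 66.4%, while the median of all contigs moved from -0.00 to 0.04. The number at p under 0.05 depended on single libraries. It was 855 without dcat/dcat replicate 1 and 285 without wt/wt replicate 2, and it fell to 74 without wt/wt replicate 1, 79 without dcat/dcat replicate 2 and 63 without dcat/dcat replicate 3. No contig passed q in any of these fits (0). DESeq2 called 1 contig, that of Mnd1, and had 28 at an unadjusted p under 0.05. With replicate number as a block in the edgeR fit, 3 contigs were called, of Mnd1, Tor1aip1 and a repeat.

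Summed by gene, 1 gene of 4833 passed (0.0207%), Mnd1, and it rose in dcat/dcat. MND1 is the partner of HOP2 in meiotic recombination, where the pair helps the recombinase DMC1 invade the homologous chromosome, a step that is over before spermatids exist. Before adjustment, 152 genes had a p under 0.05 (3.15%), 85 higher (1.76%) and 67 lower (1.39%). With total-count scaling the higher share of these genes was 64.1%, against 55.9%. The count was 403 without dcat/dcat replicate 1, 94 without wt/wt replicate 1 and 76 without dcat/dcat replicate 3. With replicate number as a block in the fit, 10 genes passed q, Mnd1 among them. The plot of level against difference shows how far Mnd1 stood from the rest.

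**Figure D1:**
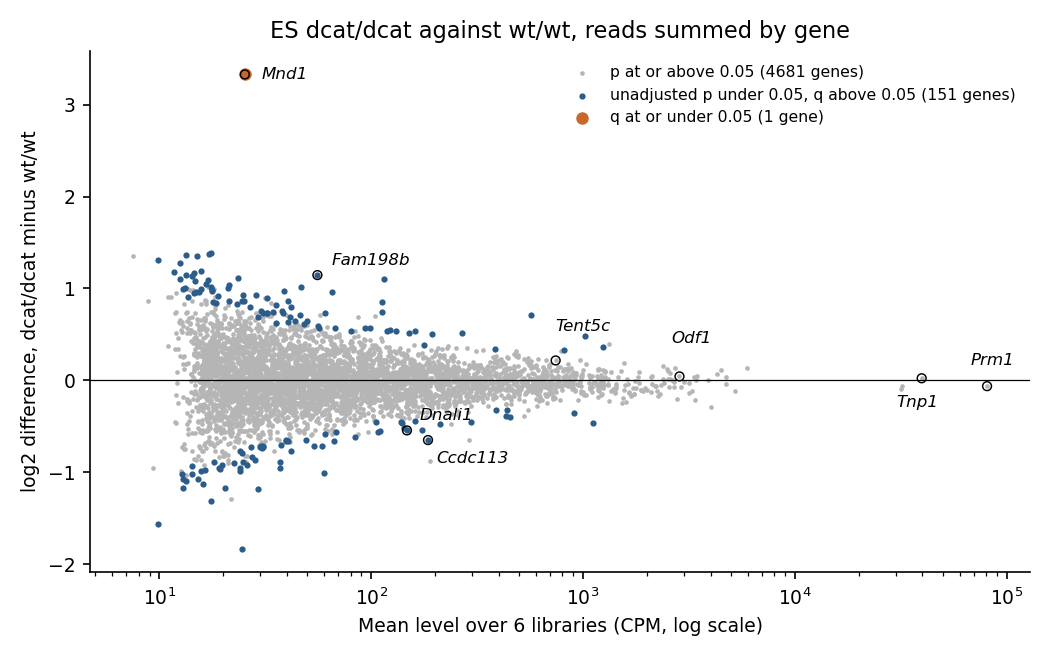
Each point is 1 of 4833 genes in ES, with its mean level over 6 libraries (CPM, log scale) against its log2 difference, dcat/dcat minus wt/wt. Mnd1 (3.33) is the only gene at q 0.05 or under, while Prm1 (-0.06), Tnp1 (0.02) and Odf1 (0.04) lie near 0.

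Mnd1 has 1 contig, ENSMUST00000047368, with 8 exons on the minus strand of chromosome 3 from 84087933 to 84155786. Its counts were 2, 2 and 3 in wt/wt against 25, 20 and 37 in dcat/dcat. Every dcat/dcat library was therefore above every wt/wt library, including the ones of replicate 1 that were otherwise so alike. The means were 5.0 ± 3.20 CPM in wt/wt against 45.7 ± 5.51 CPM in dcat/dcat (SD, n = 3). The summed counts, 82 against 7, gave a ratio of 10.7 with an exact 95% interval from 4.97 to 27.5, which covers counting error only. The fitted log2 difference was 3.33 (SE 0.44, q = 0.00236, edgeR quasi-likelihood test). The contig test had the same counts and gave 3.30 with q = 0.195 (edgeR), so the main fits called Mnd1 by gene but not by contig. Because its wt/wt counts were so low, Mnd1 entered the test only through the dcat/dcat libraries. The call was lost without wt/wt replicate 2 (q = 0.0950) and in a fit of all 12 libraries (q = 0.0670, edgeR), with log2 differences of 3.07 and 3.35. Leaving out any other library kept it, at log2 differences between 3.13 and 3.79.

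In round spermatids, the earlier stage, Mnd1 counts were 5, 3 and 0 in wt/wt against 10, 14 and 30 in dcat/dcat. The difference between genotypes was not shown to differ between stages (interaction 0.41 on the log2 scale, unadjusted p = 0.725, edgeR). Psmc3ip encodes HOP2, the partner of MND1. Its levels were 91.1, 101 and 98.6 CPM in wt/wt against 94.4, 92.9 and 91.7 CPM in dcat/dcat, and the log2 difference of -0.06 had a 95% interval from -0.49 to 0.37.

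The gene next in order of p, Fam198b (now Gask1b), encodes a Golgi-associated kinase-like membrane protein. It did not pass the test (q = 0.604, edgeR). Its levels were 37.4, 32.1 and 34.8 CPM in wt/wt against 69.0, 76.7 and 84.7 CPM in dcat/dcat. The groups did not overlap, and both were tight, with a log2 difference of 1.15 (SE 0.25). Ccdc113, a coiled-coil protein of the sperm axoneme and of the coupling between head and tail, followed (q = 0.999, edgeR). It was at 207, 213 and 264 CPM in wt/wt and at 154, 133 and 143 CPM in dcat/dcat, a log2 difference of -0.65 (SE 0.18). Here too the groups did not overlap, the lowest wt/wt library being above the highest dcat/dcat one. Fam198b and Ccdc113 were both called in the fit with a replicate block. The plot of levels by library sets these genes beside Tent5c, Odf1 and Prm1.

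**Figure D2:**
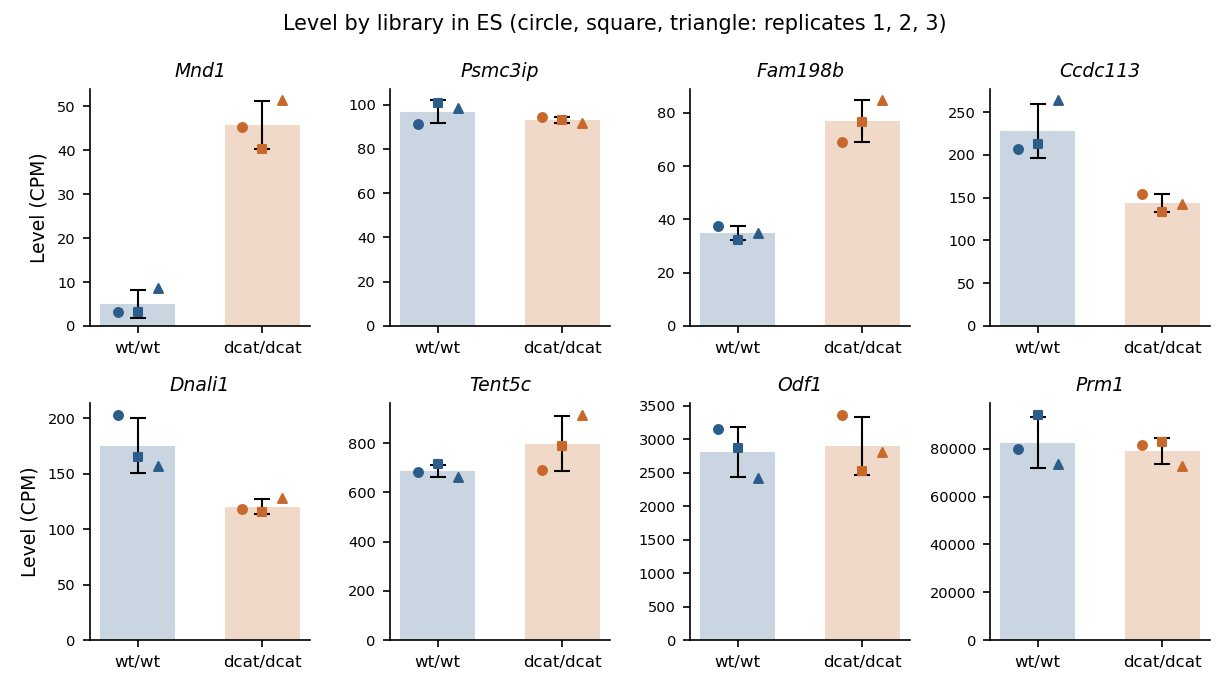
Bars give mean CPM, error bars the SD and points the 3 libraries of each genotype for 8 genes in ES. The genotypes are apart in Mnd1, Fam198b, Ccdc113 and Dnali1 and overlap in Psmc3ip, Tent5c, Odf1 and Prm1. Of these 8 genes only Mnd1 passed the main test, without a replicate block, at q 0.05.

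The promoter windows of the genes with the smallest p and of the most abundant one are shown, since Mnd1 and Fam198b lie on the same chromosome and led the contigs that were higher. Each runs from 250 bases before to 50 after the RefSeq start on GRCm38.p6, 5′ to 3′ on the gene's strand. Capitals mark a GC box (GGGCGG), the core of a TATA box (TATAA) or the core of a cAMP response element (TGACG, bound by the spermatid activator CREM), each searched on both strands, so that the reverse complement is marked too. No match overlapped another.
Mnd1, chr3:84155737-84156036, minus strand: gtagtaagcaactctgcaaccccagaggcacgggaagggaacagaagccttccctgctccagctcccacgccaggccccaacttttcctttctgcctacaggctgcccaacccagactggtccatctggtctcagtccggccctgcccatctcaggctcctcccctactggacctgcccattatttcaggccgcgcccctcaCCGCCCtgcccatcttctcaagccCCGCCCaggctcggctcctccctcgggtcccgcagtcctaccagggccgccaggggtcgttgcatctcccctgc
Gask1b, chr3:79885680-79885979, plus strand: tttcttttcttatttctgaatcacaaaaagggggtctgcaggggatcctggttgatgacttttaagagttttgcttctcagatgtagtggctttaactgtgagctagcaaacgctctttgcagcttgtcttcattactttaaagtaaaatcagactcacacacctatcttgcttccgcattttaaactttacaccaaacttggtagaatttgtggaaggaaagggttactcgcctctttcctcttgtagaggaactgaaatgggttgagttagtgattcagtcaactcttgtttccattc
Prm1, chr16:10796774-10797073, minus strand: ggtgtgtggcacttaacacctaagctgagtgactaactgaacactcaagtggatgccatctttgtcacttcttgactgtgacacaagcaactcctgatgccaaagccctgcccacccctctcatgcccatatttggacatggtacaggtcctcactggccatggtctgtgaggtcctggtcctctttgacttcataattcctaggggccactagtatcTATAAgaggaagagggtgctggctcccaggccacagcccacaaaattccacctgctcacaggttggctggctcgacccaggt
The Mnd1 window held 2 matches to the GC box, the Prm1 window 1 to TATAA and the Gask1b window none of the 3 motifs (0 matches). Of 32851 RefSeq promoter windows, 35.7% held the GC box, 24.9% TATAA and 20.8% TGACG.

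Mnd1 and Fam198b start at -16.3 and -20.6 Mb from the start of Tent5c, towards the centromere. Chromosome 3 had 337 tested contigs with a median log2 difference of 0.06. Of them, 11 had an unadjusted p under 0.05, 8 higher and 3 lower, which was 3.26% of the chromosome's contigs against 1.97% of all. The share was 3.79% on chromosome X (5 of 132, all lower) and 3.03% on chromosome 19. By distance from Tent5c, in bins chosen after the values were seen, there were 0 of 95 contigs within 10 Mb and 8 of 69 from 10 to 25 Mb. From 25 to 50 Mb there were 3 of 91, and beyond that 0 of 82.

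Those 8 contigs came from 7 genes, and several are neighbours. Fam198b gave a pair of contigs (log2 differences 1.41 and 0.79) and lies beside Tmem144 (1.74, at 7, 1 and 0 counts in wt/wt against 11, 8 and 11 in dcat/dcat). Like that of Mnd1, the contig of Tmem144 entered the test only through dcat/dcat, the group where it was higher. Mnd1 lies beside Tmem131l, whose contig pointed the other way (-0.78). Tsacc (1.19), which encodes a partner of the testis kinase TSSK6, Smg5 (0.78), a factor of nonsense-mediated decay, and Hax1 (-0.53) lay between -12.2 and -10.5 Mb. By contig, q was 0.195 for Mnd1 and 0.999 for each of the others (edgeR). Whether position on the chromosome played a part in any of these differences was not tested.

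**Figure D3:**
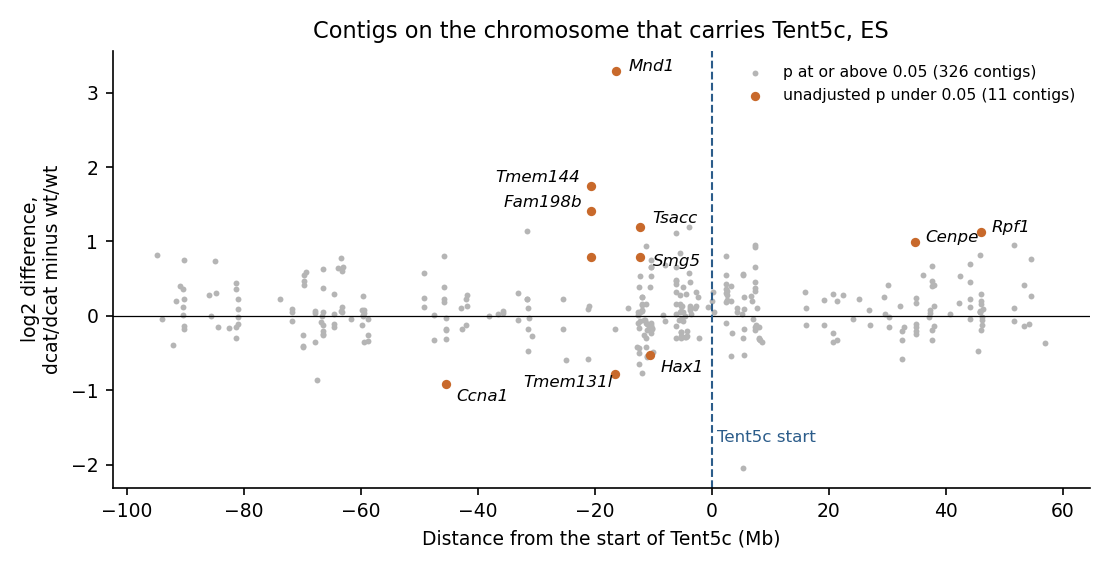
Each point is 1 of 337 contigs of the chromosome that carries Tent5c, by the distance of its start from that of Tent5c (Mb) and its log2 difference, dcat/dcat minus wt/wt. The 11 contigs at an unadjusted p under 0.05 (orange) include Mnd1 at 3.30 and the 2 contigs of Fam198b at 1.41 and 0.79, all on the same side of Tent5c.

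Groups that did not overlap were found for 243 contigs higher in dcat/dcat (3.38%) and 285 lower (3.96%), and for 210 genes higher (4.35%) and 182 lower (3.77%). Among the higher contigs with a symbol, those with the smallest p after Mnd1 and Fam198b were low in abundance. Uqcrq, a subunit of respiratory complex III, had 6, 9 and 3 counts in wt/wt against 13, 14 and 20 in dcat/dcat on a non-coding contig (log2 difference 1.23, SE 0.36). Tor1aip1, a protein of the inner nuclear membrane, had 13, 58 and 16 counts in wt/wt against 94, 63 and 92 in dcat/dcat on a contig marked for nonsense-mediated decay (1.42, SE 0.42). The protein-coding contig of the same gene with the most reads pointed the other way (-0.55). Its other tested protein-coding contigs were at 1.10 and -0.04. Phospho1, a phosphatase known from bone mineralisation, had 18, 18 and 7 counts in wt/wt against 33, 21 and 38 in dcat/dcat (0.96, SE 0.29). The further 5 of this order were Adam5, Mtx2, Luzp1, Slc22a14, a riboflavin transporter of sperm mitochondria, and Scamp1, with log2 differences of 1.06 to 1.61 and wt/wt means of 6.48 to 15.7 CPM. The shallowest library, wt/wt replicate 3, had 1 to 5 counts on each of them. These are values of single contigs. Those of Uqcrq, Adam5, Mtx2, Slc22a14 and Scamp1 entered the test only through dcat/dcat, the group where they were higher. With all contigs of the gene summed, the log2 difference was 0.14 for Uqcrq, 0.22 for Tor1aip1, 0.14 for Adam5, 0.08 for Luzp1, 0.42 for Slc22a14 and -0.09 for Scamp1, while Phospho1 and Mtx2, with 1 contig each, were at 0.97 and 1.35.

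The contigs that were lower were mostly low in abundance too. Taf6, a subunit of the general transcription factor TFIID, had 22, 10 and 13 counts in wt/wt against 4, 3 and 8 in dcat/dcat (log2 difference -1.77, SE 0.49). Dscaml1, a cell adhesion molecule, had 24, 27 and 7 counts in wt/wt against 6, 8 and 10 in dcat/dcat (-1.35, SE 0.38). After scaling these groups were apart, although the raw counts of Dscaml1 overlap. Spsb3, a substrate receptor of a ubiquitin ligase, had 14, 11 and 5 counts in wt/wt against 4, 1 and 5 in dcat/dcat (-1.69, SE 0.53), and Elfn2 had 17, 26 and 7 counts in wt/wt against 9, 4 and 10 in dcat/dcat (-1.22, SE 0.40). Ccdc113 stood out for its abundance, with 127, 139 and 91 counts in wt/wt against 85, 66 and 103 in dcat/dcat (-0.68, SE 0.20). The further 5 were Ccna1, which encodes the meiotic cyclin A1, Agbl3, a tubulin deglutamylase, Qrich2, a protein of the sperm flagellum, Srpk1, a kinase of splicing factors and protamine 1, and Prkcz, with log2 differences from -1.28 to -0.79. None of these contigs passed the test (q = 0.999, edgeR). Those of Taf6, Dscaml1, Spsb3, Elfn2, Agbl3 and Prkcz entered it only through wt/wt, the group where they were higher. Summed by gene, Taf6 was at -1.18, Dscaml1 at -0.57, Spsb3 at -0.25, Elfn2 at -0.77, Ccna1 at -0.54, Agbl3 at -0.98, Qrich2 at -0.35, Srpk1 at -0.08 and Prkcz at -1.17.

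The width of the intervals differed with abundance. Over all genes, 90% of the log2 differences lay between -0.46 and 0.54, and 41 of 4833 were 2-fold or more. A 95% interval that stayed within a 2-fold change in either direction was found for 3534 genes (73.1%) and for 3487 contigs (48.5%). Among the 364 genes at 500 CPM or more it was 362 (99.5%), with a median SE of 0.15. Among the 609 genes under 20 CPM it was 110 (18.1%), with a median SE of 0.42. For most genes under 20 CPM the interval thus reached beyond a 2-fold difference. Low contigs were also filtered unevenly, since 1077 contigs passed only through dcat/dcat and 432 only through wt/wt, whose replicate 3 is the shallowest library.

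The ranking of transcripts was headed by the same RNAs in both groups. Prm1, Tnp1, Prm2 and Tnp2, the protamines and transition proteins that replace histones in the condensing nucleus, held ranks 1 to 4 in each. Prm1 (ENSMUST00000023144) took 7.77 ± 0.674% of counts in wt/wt against 7.46 ± 0.487% in dcat/dcat, and Tnp1 (ENSMUST00000027374) 3.81 ± 0.714% and 3.95 ± 0.398% (SD, n = 3). Their log2 differences were -0.10 (95% interval from -0.36 to 0.17) and 0.01 (-0.34 to 0.35). Prm2 was at -0.08 and Tnp2 at -0.10. The mitochondrial mRNA mt-Co1, of cytochrome oxidase, held rank 5 in both, at 0.12.

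Ranks 6 to 15 of wt/wt held Dbil5, a testis acyl-CoA-binding protein, Oaz3, the testis antizyme, mt-Co2, Ldhc, the lactate dehydrogenase of germ cells, Smcp, a protein of the mitochondrial capsule, Gm5617, the ubiquitin gene Ubb, the selenoprotein Gpx4, 2610318N02Rik and 1700003F12Rik. All 10 of the first 10 contigs were shared between the group means, and 47 of 50, 96 of 100 and 943 of 1000. Between single libraries of a group 7 to 9 of the first 10 and 823 to 893 of the first 1000 were shared, and between the groups 7 to 10 and 815 to 940. The largest shift of rank among the 15 was that of Gpx4, from 13 to 25, at 2569, 1651 and 1060 counts in wt/wt against 2252, 915 and 973 in dcat/dcat. Its interval ran from -1.28 to 0.41, and the replicate 1 libraries were the highest of each group, as they were for Oaz3 (3681, 2253 and 1401 counts in wt/wt against 3108, 1452 and 1840 in dcat/dcat). A read here is a molecule, so counts were not divided by length. Ordered by CPM per kilobase instead, 6 of the first 10 and 745 of the first 1000 in wt/wt were the same.

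The 10 contigs with the highest mean level held 20.4%, 22.3% and 18.9% of counts in wt/wt against 20.7%, 20.8% and 19.1% in dcat/dcat. The difference of -0.39 percentage points was within the spread between libraries (exact two-sided permutation test, p = 1, with 0.1 the smallest p that 20 arrangements allow). Repeat-named contigs held 1.27%, 1.33% and 1.28% in wt/wt against 1.27%, 1.23% and 1.22% in dcat/dcat, a difference of -0.06 points (exact permutation test, p = 0.20). The share tests numbered 6. The other 4, on protein-coding, retained intron, nonsense-mediated decay and mitochondrial contigs, gave exact permutation p between 0.40 and 0.50. Adjusted over the 6, each was 0.60 except that of the 10 most abundant contigs, at 1.

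**Figure D4:**
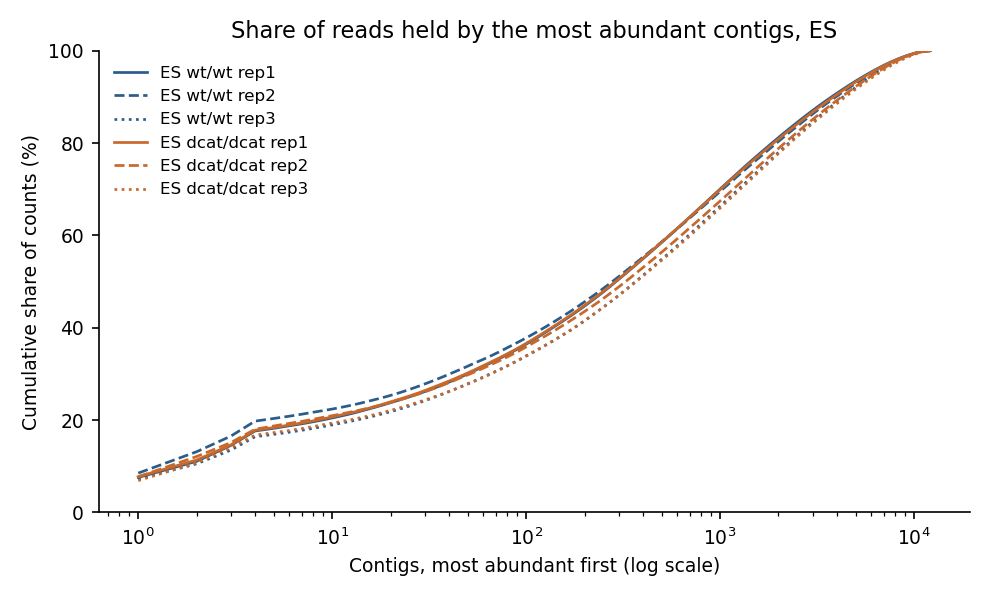
The curves give, for each of the 6 ES libraries, the cumulative share of counts (%) against the number of contigs taken, most abundant first (log scale). They run close together, with the first 10 contigs of each library at 19.0% to 22.4%, and at that point the order of the curves does not follow genotype.

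Among the 15 mRNAs whose tails the study discusses, a list drawn up there with these samples in view and so not independent of them, none passed the main test in level (0 of 15, median log2 difference -0.06 against -0.00 over all genes). Of them, Insl3 was called in the fit with a replicate block. Odf1, the main protein of the outer dense fibres that stiffen the sperm tail, was at 3152, 2866 and 2416 CPM in wt/wt against 3366, 2524 and 2804 CPM in dcat/dcat. The groups overlapped throughout, and the log2 difference of 0.04 had a 95% interval from -0.27 to 0.35. By RNA FISH, a staining of mRNA in tissue sections, the study saw no Odf1 aggregates in dcat/dcat spermatids at the last step. It holds that sequencing of sorted ES likely lacks the sensitivity and stage resolution to show a loss so late. Smcp was at 4638, 4020 and 3855 CPM in wt/wt against 4918, 4010 and 4249 CPM in dcat/dcat, a log2 difference of 0.07 (-0.22 to 0.37). Odf2, another outer dense fibre protein, was at 4123, 3742 and 3840 CPM in wt/wt against 3834, 3491 and 4403 CPM in dcat/dcat (0.00, from -0.28 to 0.29). Both overlapped between the groups. Ldhc was at 4728, 4930 and 4316 CPM in wt/wt against 4789, 5024 and 4478 CPM in dcat/dcat (0.03, from -0.24 to 0.31). Spag4, a nuclear envelope protein of the head-tail junction, was at 494, 419 and 392 CPM in wt/wt against 470, 432 and 424 CPM in dcat/dcat (0.02, SE 0.15). The intervals of all these stayed within a 2-fold change. Odc1, the first enzyme of polyamine synthesis, was at 338, 298 and 342 CPM in wt/wt against 263, 345 and 301 CPM in dcat/dcat (-0.10, SE 0.16). Wdr64 was at 169, 232 and 180 CPM in wt/wt against 160, 184 and 161 CPM in dcat/dcat (-0.22, SE 0.19). Ccdc42, needed for the sperm tail and its head attachment, was at 87.8, 65.8 and 89.9 CPM in wt/wt against 81.7, 60.6 and 47.2 CPM in dcat/dcat (-0.36, SE 0.26), and these groups overlapped as well. By gene, Prm1, Prm2, Tnp1 and Tnp2 were at -0.06, -0.06, 0.02 and -0.09. Ccna1 was the 1 member at an unadjusted p under 0.05, at 169, 197 and 252 CPM in wt/wt against 147, 168 and 110 CPM in dcat/dcat, a log2 difference of -0.54 (SE 0.21). Its dcat/dcat libraries were all below those of wt/wt, by a narrow margin.

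Insl3 and Ptgds, which encode a peptide hormone of Leydig cells and a prostaglandin synthase, varied widely within the groups. The study found INSL3 protein in Leydig cells and in no germ cell. Insl3 was at 218, 434 and 415 CPM in wt/wt against 118, 162 and 385 CPM in dcat/dcat, with a log2 difference of -0.65 (95% interval from -1.31 to 0.02). Each dcat/dcat library was below the wt/wt library of the same number, and the fit with a replicate block called Insl3. Ptgds was at 27.6, 18.4 and 55.1 CPM in wt/wt against 21.8, 14.1 and 70.8 CPM in dcat/dcat, at 0.29 (-0.73 to 1.3). Of 15 Leydig cell markers 7 had a contig in the table, Insl3, the most abundant of them, and Ptgds included. The other 5 (Fabp3, Aldh1a1, Cyp17a1, Fdx1 and Cyp11a1) summed to 128, 223 and 293 CPM in wt/wt against 87.1, 204 and 424 CPM in dcat/dcat, so that in both groups replicate 1 was lowest and replicate 3 highest. All 7 had a median log2 difference of 0.23, and it was -0.77 without dcat/dcat replicate 3. The part of Leydig cell RNA in the Insl3 and Ptgds levels was not tested. In bulk RNA, fewer cells of a type and less RNA per cell cannot be told apart.

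The lists of sperm structures lay close to the median of all genes. For nuclear condensation, 0 of 14 measured genes passed or reached an unadjusted p under 0.05, and the median was -0.09, with Prm3 at -0.17 (SE 0.14) and the spermatid linker histones Hils1 and H1fnt at -0.06 and -0.19. Of 31 genes of the outer dense fibre and head-tail coupling, Ccdc113 alone reached an unadjusted p under 0.05, and the median was -0.00. The fibrous sheath, which carries signalling and glycolytic enzymes along the tail, had a median of 0.02 over 16 genes, with Akap4 at 0.08 and Ropn1 at 0.03. The mitochondrial sheath was at 0.01 over 21 genes and the manchette, the microtubule skirt that shapes the head, at 0.00 over 23, with 0 members at p under 0.05 in either.

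Of 36 measured axoneme and radial spoke genes, 2 were lower at an unadjusted p under 0.05 and 0 higher (background 1.39% and 1.76%). Dnali1, a light intermediate chain of inner dynein arms, was at 203, 165 and 157 CPM in wt/wt against 118, 115 and 128 CPM in dcat/dcat (log2 difference -0.55, SE 0.19). Its groups did not overlap. Cfap52, a cilia and flagella protein, was at 79.7, 55.1 and 84.1 CPM in wt/wt against 58.1, 36.3 and 48.6 CPM in dcat/dcat, with overlap between the groups (-0.58, SE 0.27). The most abundant member, Meig1, was at -0.02 (SE 0.15), and the list's median was -0.00.

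The acrosome list had a median of -0.04 over 32 genes. Its 1 member at an unadjusted p under 0.05 was the hyaluronidase Spam1, higher in dcat/dcat but low in level (24.7 ± 8.79 and 39.9 ± 8.40 CPM, SD, n = 3). Its most abundant member, Crisp2, was at 0.01. The 17 genes of the perinuclear theca and actin-related proteins had a median of -0.09 and 0 members at p under 0.05. The 20 glycolytic genes of sperm had a median of 0.03, with Gapdhs at 0.00 (SE 0.15), Pgk2 at 0.04 and Tpi1 at 0.34 (SE 0.16), the latter at an unadjusted p under 0.05 with 339 ± 32.8 CPM in wt/wt against 428 ± 53.1 CPM in dcat/dcat (SD, n = 3). For calcium channels and motility signalling the median was 0.02 over 28 genes, with Tssk2 at 0.04 and Tssk6 at 0.06. That median lay between -0.04 and -0.01 without wt/wt replicate 1 or 3 or any dcat/dcat replicate.

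**Figure D5:**
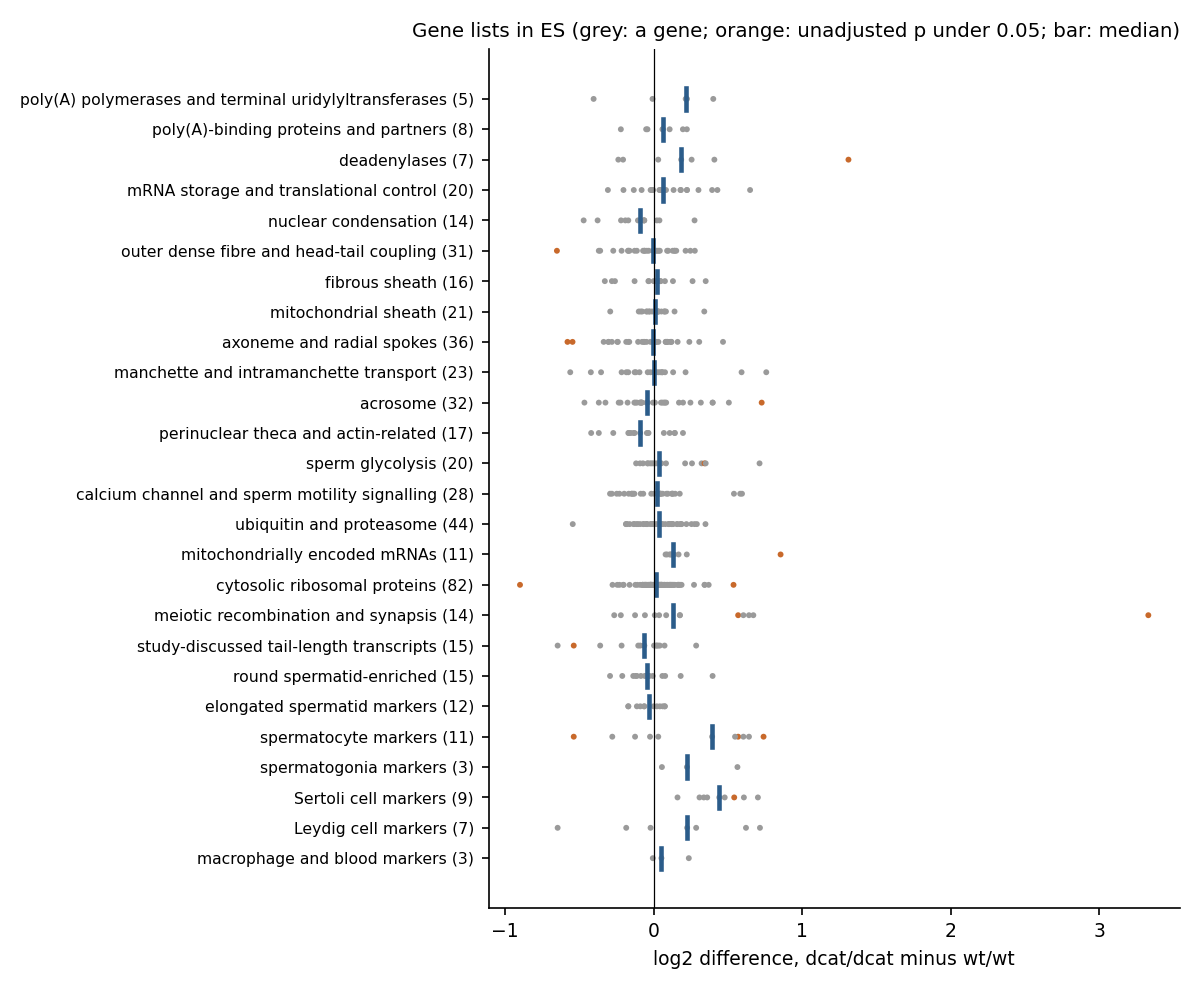
Each line is a gene list with the number of its tested genes in brackets, each point a gene with its log2 difference in ES (orange where the unadjusted p was under 0.05) and each bar the list's median. Medians of the lists of sperm structures run from -0.09 to 0.02, and the point at 3.33 is Mnd1.

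The machinery that acts on tails was examined as well. Among poly(A) polymerases and terminal uridylyltransferases, 8 of 14 listed genes were in the table and 5 were tested, with 0 at an unadjusted p under 0.05 and a median of 0.22. Papolb, the cytoplasmic poly(A) polymerase of the testis, was at 335, 353 and 371 CPM in wt/wt against 359, 432 and 443 CPM in dcat/dcat. Its groups overlapped, and the log2 difference of 0.23 had a 95% interval from -0.09 to 0.54. The 8 poly(A)-binding proteins and partners had a median of 0.06, with Paip2 at -0.05 and Pabpc1 at 0.20 (SE 0.20). That median was -0.03 without wt/wt replicate 1, -0.02 without dcat/dcat replicate 3 and 0.12 without dcat/dcat replicate 1. Among 7 deadenylases and their partners, Btg2 was higher at an unadjusted p under 0.05 but at only 2, 5 and 2 counts in wt/wt against 4, 10 and 11 in dcat/dcat, and Btg1, the most abundant, was at 0.03. Btg2 entered the test only through dcat/dcat. The 20 genes of mRNA storage and translational control had a median of 0.07 and 0 at p under 0.05, with Ybx2, which binds stored mRNAs, at 0.04 (SE 0.16).

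Housekeeping lists gave small medians. Ubiquitin and proteasome genes were at 0.04 over 44 genes, with Ubb at -0.13 (SE 0.15). The 82 cytosolic ribosomal protein genes were at 0.02, with Rpl4 higher (0.54) and Rpl10 lower (-0.90) at an unadjusted p under 0.05. Without wt/wt replicate 2 the median of these genes was 0.09. All 11 mitochondrially encoded mRNAs had a log2 difference above 0, with a median of 0.13. The 1 member at an unadjusted p under 0.05 was mt-Nd6, a subunit of respiratory complex I, at 52.0, 118 and 66.7 CPM in wt/wt against 56.3, 254 and 131 CPM in dcat/dcat (0.85, SE 0.39), with overlap between the groups. The fit with a replicate block called mt-Nd6. The 11 share the mitochondrial genome, and they summed to 18173, 20920 and 18006 CPM in wt/wt against 19205, 25043 and 18433 CPM in dcat/dcat, so that dcat/dcat replicate 2 was high and the others overlapped.

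Lists of other cell types were less even. All 9 tested Sertoli cell markers lay above 0, with a median of 0.44, and Defb19, a beta-defensin, had an unadjusted p under 0.05 (0.54, SE 0.25). Of the 9, 2 passed the filter only through dcat/dcat and 0 only through wt/wt, which favours values above 0. The median of those that passed through both groups was 0.36. Their summed level was 317, 567 and 345 CPM in wt/wt against 436, 650 and 589 CPM in dcat/dcat, which overlapped between the groups. Sox9, Wt1 and Amh, which define the cell type, had no contig in the table. The 11 tested spermatocyte markers had a median of 0.39, which was 0.02 over the 6 of them with 10 reads in every library. At an unadjusted p under 0.05 there were 2 higher, Stag3, a cohesin subunit of meiosis (0.57), and Tex101 (0.74), and 1 lower, Ccna1, against 1.76% and 1.39% of all genes. Groups did not overlap for 3 higher (Stag3, Tex101 and Sycp2) and 1 lower (Ccna1), against 4.35% and 3.77%. The summed level of the list, 5142 to 5534 CPM in wt/wt against 5117 to 5723 CPM in dcat/dcat, overlapped and is mostly Ldhc. The 14 tested genes of meiotic recombination and synapsis, Mnd1 and Stag3 among them, had a median of 0.13, with 10 members above 0 and 4 below. Groups did not overlap for 4 that were higher, Mnd1, Stag3, Sycp2 (0.64) and Tex15 (0.67), and for 0 that were lower, against 4.35% and 3.77% of all genes. Of the 14 genes, 2 passed the filter only through dcat/dcat and 1 only through wt/wt. The most abundant members, Hspa2, Syce2, Syce1 and Syce3, were at 0.08, 0.04, -0.26 and 0.01. The part of spermatocyte RNA in the Mnd1 level was not tested.

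Contig types differed slightly in their medians. Protein-coding contigs were at -0.01 over 5873 contigs, retained intron contigs at 0.21 over 263 and those marked for nonsense-mediated decay at 0.18 over 292. The uneven filter adds to this, since 85 of the retained intron contigs passed only through dcat/dcat and 23 only through wt/wt. Among contigs that passed through both groups the medians were 0.09 for retained introns, 0.11 for nonsense-mediated decay and -0.03 for protein-coding ones. As the shares of counts above show, these types also set the replicate 1 libraries apart.

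Within genes, the share of reads on each contig was compared for 1450 genes that had at least 2 tested contigs. None changed at q 0.05 (0 genes, 0%, edgeR), and 30 had an unadjusted p under 0.05 (2.07%). That number was 337 without dcat/dcat replicate 1 and 112 without wt/wt replicate 2, and 7 to 13 without wt/wt replicate 1, dcat/dcat replicate 2 or dcat/dcat replicate 3, with 0 genes at q 0.05 in each. The smallest p were those of Adam5, Tmem39b and Gabarap. In each of these genes, the contig whose share was larger in dcat/dcat entered the test only through dcat/dcat. Adam5, a sperm surface protein of the ADAM family, had 1.25 ± 0.244% of its reads in wt/wt against 2.87 ± 0.411% in dcat/dcat on its contig ENSMUST00000209935 (SD, n = 3), which has 3 to 16 reads in a library. Tmem39b had 74.5 ± 8.48% and 49.3 ± 5.84% on ENSMUST00000102588 (SD, n = 3), the rest being on a contig marked for nonsense-mediated decay. For Gabarap, a protein of autophagosome formation, a minor contig held 1.74 ± 1.35% and 5.77 ± 3.06% (SD, n = 3). Counts on the decay contig of Tmem39b were 9, 10 and 3 in wt/wt against 12, 14 and 15 in dcat/dcat. On the minor Gabarap contig they were 5, 8 and 1 in wt/wt against 7, 12 and 25 in dcat/dcat.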

How the data were processed

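Direct RNA reads of ES from 3 wt/wt and 3 dcat/dcat libraries were analysed. Per the study's methods, the authors called bases with Guppy, aligned reads with minimap2 to GENCODE vM17 transcripts (GRCm38.p6) and kept reads whose tail call passed; the labels name minimap2 2.20-r1061 and build mm10. The deposited table holds whole-number counts of reads per contig, unnormalized, already limited to contigs above a read minimum. Selection on oligo(dT) and the tail filter act on poly(A), which the allele concerns, and their part in the counts cannot be told apart. The authors' tables of DESeq2 fold changes and adjusted p-values were not used.

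Contigs were annotated by identifier from GENCODE vM21 (98.5% matched). Counts were tested with edgeR 4.0.16 (R 4.3.3): TMM scaling, glmQLFit and glmQLFTest on the 6 ES libraries, with q by Benjamini-Hochberg at 0.05. SE is the log2 difference divided by the square root of F. Contig usage was tested by diffSpliceDGE, and library shares by exact permutation with scipy. All p not called exact are edgeR's. The fit was also run on simulated counts that had less spread than these libraries, so that run does not show how it performs here. A floor of 3 counts corresponds to 4.02 to 8.62 CPM. Alternatives included DESeq2 1.42.0, other scalings and filters, all 12 libraries, and leaving out each library.

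Named were Tent5c, called genes, the 10 contigs of smallest p without overlap in each direction, the 15 most abundant, the 3 smallest usage p, and of each list abundant members and those at p under 0.05; Psmc3ip and the neighbours on chromosome 3 were added after their values were seen. The members and lists were chosen with earlier results of these data known.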

Additional observations from a re-analysis of the deposited data

How the results depend on the processing

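Contigs called numbered 1 with DESeq2 and 3 with a replicate block, and 0 under every other setting run. Genes called numbered 0 when 10 reads were required in every library, where Mnd1 was not tested, 0 in the fit of all 12 libraries, and 10 with the block; leaving out 1 library gave 0 to 2, with 0 without wt/wt replicate 2 and 2 without dcat/dcat replicate 1. Changed contig usage was called for 0 genes under every setting run. The labels number replicates alike in both groups. Deviations from the group means correlated at 0.64, 0.48 and 0.07 for numbers 1, 2 and 3, the highest value of each wt/wt library. For dcat/dcat replicate 3 the highest value was with wt/wt replicate 2 (0.40). These values do not settle whether the numbers pair the libraries, and the main fit did not pair them. Per the study, each sorting session took a mouse of both genotypes, but which mice went into which numbered pool was not given. If the numbers do mark shared sessions, the block is the fitting design; it called Ccdc113, Fam198b, Fmn1, Gm29216, Insl3, Lcn2, Mnd1, Ppp1r11, Rps2-ps10 and mt-Nd6 by gene, and Mnd1, Tor1aip1 and a repeat by contig.

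Contigs at an unadjusted p under 0.05 numbered 28 with DESeq2, 276 without a filter, 47 with 10 reads in every library and 616 with the block, and genes 36, 235, 74 and 337. Some contigs with small log2 differences changed sign. Gm5617 was at 0.0298 by total counts and 0.0468 with 10 reads in every library, where Dbil5 was at 0.00354; without a filter Tnp1 was at -0.00141 and Ldhc at -0.00161; with the block Ptgds was at -0.0237. Leaving out 1 library gave ranges with both signs for Tnp1 (-0.11 to 0.19), Ldhc (-0.0673 to 0.0686), Odf1 (-0.11 to 0.13), Odf2 (-0.30 to 0.0541), Smcp (-0.33 to 0.10), Spag4 (-0.62 to 0.0908), Gm5617 (-0.0939 to 0.0539), mt-Co2 (-0.0538 to 0.17) and Ptgds (-0.82 to 0.66). The share of the 10 most abundant contigs differed by -1.20 to 0.50 points and that of repeats by -0.07 to -0.04 points. The cause of these changes was not tested. Depth limits the contigs under 20 CPM, and 3 pools a group limit every test.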
